A study of Mus musculus with 8 samples.

Results

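Cyclic nucleotide signalling in cultured mouse brain pericytes was described through 56 protein-coding genes, chosen by symbol from the 54532 gene identifiers counted. They were the adenylyl cyclases (*Adcy1* to *Adcy10*), the subunits of the soluble guanylyl cyclase and the membrane guanylyl cyclases (*Gucy1* and *Gucy2* genes), the natriuretic peptide receptors *Npr1* to *Npr3*, the nitric oxide synthases *Nos1* to *Nos3*, the phosphodiesterases (PDEs), the subunits of protein kinase A (PKA), the cGMP-dependent kinases (PKG) *Prkg1* and *Prkg2*, and *Mrvi1*, which encodes the PKG substrate IRAG1. By the messenger they make, carry or break down, 24 genes were placed in a cAMP arm, 23 in a cGMP arm and 8 among PDEs that hydrolyse both messengers. *Pde6d*, a prenyl-binding chaperone with no catalytic site, was kept apart.

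RNA-seq counts came from 8 primary cultures of pericytes from the brains of wild-type mice. The methods give an age for the study's mice in general and a strain background for its engineered prostate lines, but do not say whether these hold for the mice that gave the pericytes. The methods also describe independent isolates given vehicle and TGF-β1, without saying that each received both. The labels tie no culture to an isolate, so the groups may share isolates and n = 4 per group counts cultures. In 4 cultures TGF-β1 had been present for 48 h at 5 µg/mL, the dose the labels give, and the 4 control cultures had received vehicle for the same 48 h. All cultures shared the papain dissociation, the move from endothelial to pericyte medium and the repeated passages that the methods describe, so they are passaged cells and not freshly isolated ones. Values are listed below in the order of vehicle replicates 1, 2, 3 and 4 and of TGF-β1 replicates 5, 6, 7 and 8.

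cAMP and cGMP are intracellular messengers made by cyclases, read mainly by PKA and PKG, and removed by PDEs. In contractile cells of the vessel wall both messengers favour relaxation. Nitric oxide activates the soluble guanylyl cyclase, and natriuretic peptides activate guanylyl cyclases that are themselves receptors. The arms meet in the PDEs, since cGMP slows the PDE3 enzymes and speeds PDE2, and calcium with calmodulin drives the PDE1 enzymes.

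Of the 56 genes, 48 had enough counts to be tested and 32 of them changed with TGF-β1 (edgeR's quasi-likelihood test, Benjamini-Hochberg adjusted p under 0.05 over 22544 genes). Among the 48, 13 rose and 19 fell. Over all genes tested, 41.3% changed, 20.9% higher and 20.3% lower. The share among the cyclic nucleotide genes was 66.7%. A change of at least 0.5 on the log2 scale was called for 20 of the 48, or 41.7%, against 14.0% of all genes, and a change of at least 1 for 10 of them, or 20.8%, against 5.41%. The groups of 4 cultures did not overlap for 30 of the 48, or 62.5%, against 37.9% of all genes. The median log2 fold change was −0.04 over the 48 and −0.01 over all genes, while the median of the absolute log2 fold change was 0.39 and 0.18.

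The 8 genes left untested for low counts were *Gucy1b1*, *Gucy2c*, *Gucy2d*, *Gucy2e*, *Gucy2g*, *Pde11a*, *Pde4c* and *Pde6c*. The filter asked for enough counts in at least 4 cultures, so a gene could pass through 1 group alone, and 54 of the 56 genes had counts in all 8 cultures. *Nos1* (2 to 10 counts in vehicle and 12 to 20 with TGF-β1) and *Gucy1b2* (13 to 16 and 4 to 9) passed through their higher group alone. Both are counted above among the genes changed by at least 1 on the log2 scale. Where a gene is at or below 3 counts, which is 0.0631 to 0.0658 CPM (counts scaled to a common library size) in these cultures, its level could not be told from 0. These limits cover counting error only.

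**Figure D1:**
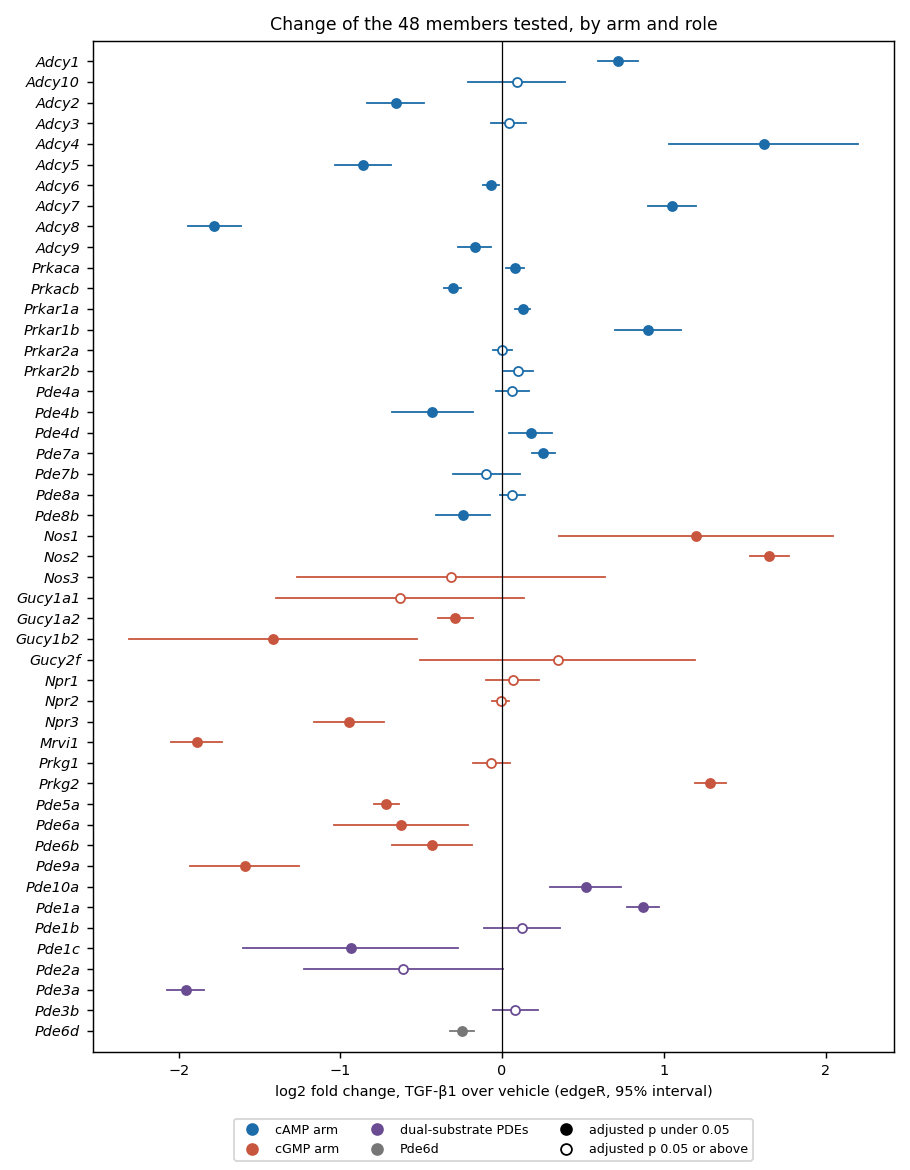
Log2 fold change of each of the 48 tested genes (TGF-β1 over vehicle, edgeR, points) with its 95% interval (lines), grouped by arm and role from top to bottom. Filled points passed an adjusted p of 0.05. The cAMP-specific PDEs tested run from −0.43 to 0.25, the 4 cGMP-specific PDEs tested run from −1.59 to −0.44, and the widest intervals belong to genes with few counts.

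Large changes took a greater share of the cGMP arm than of the cAMP arm, though no test of the difference between the arms was made. In the cAMP arm, 8 of 23 tested genes rose, 8 fell and 7 were not called, and 7 passed with a change of at least 0.5. In the cGMP arm, 3 of 17 rose, 8 fell and 6 were not called, and 9 passed with a change of at least 0.5. As shares of the genes tested these were 30.4% and 52.9%. The 9 include *Nos1* and *Gucy1b2*, which passed the filter only through the group where they were higher. The 52.9% therefore rests in part on that filter. The share called at any size was 69.6% in the cAMP arm and 64.7% in the cGMP arm. The median log2 fold change was 0.06 in the cAMP arm and −0.32 in the cGMP arm, and the median absolute value was 0.18 and 0.63. The cGMP medians are the values of *Nos3* (3 to 13 counts per culture) and *Gucy1a1* (8 to 22 counts). Neither gene was called, so these medians are imprecise. Of the 7 dual-substrate PDEs tested, 2 rose and 2 fell, all by more than 0.5.

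To compare levels between genes, CPM were divided by the length of each gene's merged exons in kb. By this measure the cultures expressed the cAMP arm mostly through PKA subunits and *Adcy6*, and the cGMP arm mostly through *Npr2*. *Prkar1a* led all 56 genes with a mean of 73.4 CPM per kb over the 8 cultures. It was followed by *Npr2* at 41.2, *Prkaca* at 40.9, *Adcy6* at 24.1 and *Pde6d* at 20.5 CPM per kb. In all, 8 genes reached 10 CPM per kb, 30 reached 1 and 15 were under 0.1. *Npr2* and *Prkaca* could not be ordered, since in vehicle *Npr2* was the higher at 41.3 against 39.7 CPM per kb and with TGF-β1 *Prkaca* was, at 42.0 against 41.0.

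**Figure D2:**
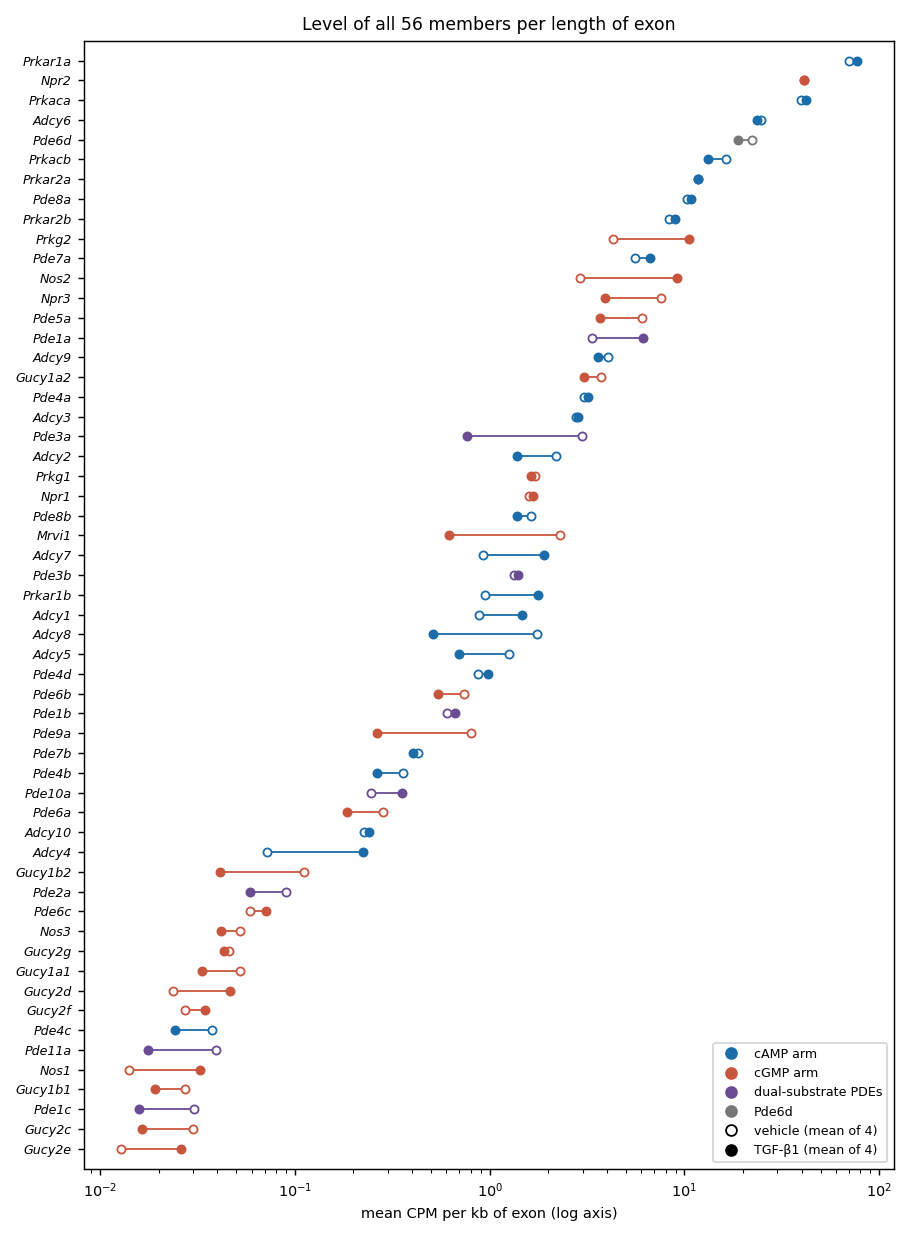
Mean level of all 56 genes in CPM per kb of exon (log axis) in vehicle (open points, mean of 4) and TGF-β1 (filled points, mean of 4), ordered by the mean over the 8 cultures. *Prkar1a* is at the top with 73.4 CPM per kb, and the long lines of *Pde3a*, *Mrvi1*, *Adcy8*, *Nos2* and *Prkg2* mark large changes among genes of middle level.

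Promoter windows in RefSeq (GRCm38.p6, from 250 bp before to 50 bp after each start site) were found for 44 of the 56 genes, with 85 windows in all. The cAMP response element, to which CREB factors bind, was searched as TGACGTCA and its core as TGACG, on both strands, and every full element also holds the core. The full element was in 1.79% of all 32851 windows and, among these 44 genes, in 2 overlapping windows of *Prkar1a* alone. The core was in 20.8% of all windows and in 20 of the 85, or 23.5%. Counted by gene, 18 of the 44, or 40.9%, had it in at least 1 window, against 23.0% of all 27025 genes with windows. The 18 were made up of 6 of 10 that rose, 6 of 14 that fell, 4 of 14 not called and 2 of 6 not tested. Genes with several windows have more chances to hold it. The Smad palindrome GTCTAGAC was in 0.213% of all windows and in none of the 85. A match is only a run of letters, and counts per gene do not tell which start site was used.

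Windows are shown for the highest gene of the arms, *Prkar1a* (chr11:109650612-109650911, plus strand), and for genes that moved strongly in 3 roles, *Adcy7* (chr8:88282742-88283041, plus strand), *Npr3* (chr15:11907322-11907621, minus strand) and *Mrvi1* (chr7:110946138-110946437, minus strand). Each runs 5′ to 3′ along the gene's strand, and capitals mark the full element or its core on either strand. *Prkar1a* has 6 windows, *Adcy7* 3, *Mrvi1* 2 and *Npr3* 1. For each gene the window with the most matches was taken, so the windows were picked for holding them. In *Prkar1a* the full element lies at +38 to +45 and a core at −100 to −96. Counted from the start site of the overlapping window, the same full element lies at −49 to −42. In *Adcy7* a core in reverse complement lies at −28 to −24, in *Npr3* a core lies at −50 to −46, and *Mrvi1* has no match in this window.
Prkar1a: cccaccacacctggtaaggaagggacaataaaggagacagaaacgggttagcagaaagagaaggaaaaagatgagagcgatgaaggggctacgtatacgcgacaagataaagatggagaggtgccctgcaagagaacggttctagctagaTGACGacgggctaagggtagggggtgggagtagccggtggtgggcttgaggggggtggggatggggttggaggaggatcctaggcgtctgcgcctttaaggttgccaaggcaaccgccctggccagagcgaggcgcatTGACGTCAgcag
Adcy7: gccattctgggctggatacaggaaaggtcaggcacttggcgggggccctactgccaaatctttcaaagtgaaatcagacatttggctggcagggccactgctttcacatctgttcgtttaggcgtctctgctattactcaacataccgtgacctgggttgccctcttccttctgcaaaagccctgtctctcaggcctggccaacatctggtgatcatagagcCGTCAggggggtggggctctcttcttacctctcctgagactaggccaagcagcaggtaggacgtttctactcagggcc
Npr3: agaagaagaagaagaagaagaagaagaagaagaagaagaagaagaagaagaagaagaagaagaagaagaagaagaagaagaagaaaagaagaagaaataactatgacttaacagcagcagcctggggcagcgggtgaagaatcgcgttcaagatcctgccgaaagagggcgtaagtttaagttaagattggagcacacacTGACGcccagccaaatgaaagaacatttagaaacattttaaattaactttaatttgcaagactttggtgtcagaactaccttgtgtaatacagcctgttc
Mrvi1: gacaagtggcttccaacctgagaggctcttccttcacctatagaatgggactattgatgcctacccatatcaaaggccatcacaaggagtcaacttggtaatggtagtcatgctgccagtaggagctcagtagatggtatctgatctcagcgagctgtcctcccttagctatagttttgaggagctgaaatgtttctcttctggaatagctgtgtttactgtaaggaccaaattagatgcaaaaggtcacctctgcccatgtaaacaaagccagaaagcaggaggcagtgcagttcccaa

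Among the adenylyl cyclases, which make cAMP from ATP, 3 of 10 rose, 5 fell and 2 were not called. Of the cyclases stimulated by calcium and calmodulin, *Adcy8* fell while *Adcy1* rose. Of those stimulated by G protein βγ subunits, *Adcy2* fell while *Adcy7* and *Adcy4* rose. The calcium-inhibited pair *Adcy5* and *Adcy6* both fell, by very different amounts.

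*Adcy8* (ENSMUSG00000022376, chr15:64697084-64922296) had 14.1, 13.9, 14.4 and 14.8 CPM in vehicle and 4.98, 3.55, 4.21 and 3.94 CPM with TGF-β1. The groups lay far apart. Its log2 fold change was −1.78 ± 0.08 (SE, n = 4 per group, adjusted p = 1.78e-22), a 3.44-fold lower level.

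*Adcy7* had 5.75, 6.65, 6.42 and 6.02 CPM in vehicle and 12.3, 13.6, 13.2 and 12.4 CPM with TGF-β1. Every treated culture was above every control, and the log2 fold change was 1.05 ± 0.07 (SE, adjusted p = 2.58e-16). *Adcy1*, best known from neurons, had 11.7, 10.02, 11.5 and 11.1 CPM in vehicle and 17.6, 17.8, 18.1 and 19.6 CPM with TGF-β1, again with no overlap. It rose by 0.72 ± 0.06 on the log2 scale (SE, adjusted p = 1.45e-13).

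*Adcy5* fell by 0.86 ± 0.09 on the log2 scale (SE, adjusted p = 1.22e-11), from 8.62 to 9.33 CPM in vehicle to 4.34 to 5.36 CPM with TGF-β1. *Adcy2* fell by 0.66 ± 0.09 (SE, adjusted p = 2.59e-08), from 8.58 to 10.3 CPM to 5.24 to 6.92 CPM. Neither gene's groups overlapped. *Adcy4* was barely present, with 9 to 65 counts per culture, and had 0.217, 0.197, 0.505 and 0.433 CPM in vehicle and 1.42, 0.740, 1.05 and 0.979 CPM with TGF-β1. Its log2 fold change was 1.62 ± 0.29 (SE, adjusted p = 9.23e-06).

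*Adcy6*, the most abundant cyclase per length of exon, hardly moved. It had 166, 168, 165 and 168 CPM in vehicle and 161, 158, 164 and 155 CPM with TGF-β1. The groups did not overlap, though they lay close together, and the log2 fold change was −0.07 ± 0.02 (SE, adjusted p = 0.0287). The call was lost in 6 of the 8 fits that left out 1 culture (adjusted p from 0.0564 to 0.188), those without a vehicle replicate or without TGF-β1 replicate 6 or 8.

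*Adcy9*, a widely expressed cyclase, fell by 0.17 ± 0.05 on the log2 scale (SE, adjusted p = 0.00595), from a mean of 21.1 to 18.8 CPM. *Adcy3*, known for its part in olfaction, and *Adcy10*, the soluble bicarbonate-sensitive cyclase, were not called, with 95% intervals of the log2 fold change from −0.07 to 0.15 and from −0.21 to 0.39. A gene on the other strand, *Cenpo*, shares 22.1% of the exon length of *Adcy3*, and the strand setting of the counting is not given. Shorter overlaps of the same kind cover 11.7% of the exon length of *Npr1*, 8.92% of *Adcy6*, 7.60% of *Pde8b*, 5.82% of *Pde3a* and 5.70% of *Npr2*.

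Summed over the 10 cyclases, the level was 38.5 to 39.1 CPM per kb in vehicle and 35.9 to 36.9 with TGF-β1, so the groups did not overlap. The makeup shifted more than the sum. *Adcy6* held 63.5% of it in vehicle and 64.6% with TGF-β1 (group means), while *Adcy8* went from 4.53% to 1.40%, *Adcy7* from 2.38% to 5.25% and *Adcy1* from 2.29% to 4.01%. No test was made on these sums and shares, here or below, because the genes in them were chosen with results known.

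PKA, the main reader of cAMP, is a pair of catalytic subunits held by a pair of regulatory ones. Its genes changed by small amounts, with *Prkar1b* as the exception. The catalytic subunit *Prkacb* fell, from 145, 143, 143 and 143 CPM in vehicle to 116, 114, 119.6 and 115 CPM with TGF-β1. The log2 fold change was −0.30 ± 0.03 (SE, adjusted p = 1.14e-13). *Prkaca*, the other catalytic subunit, rose by 0.08 ± 0.03 (SE, adjusted p = 0.0178), from 96.6 to 100.4 CPM to 102 to 107 CPM. The share of *Prkacb* in the catalytic level per length of exon went from 28.8 to 29.6% in vehicle to 23.7 to 24.4% with TGF-β1, and the catalytic sum overlapped between groups (55.1 to 56.7 and 54.4 to 56.6 CPM per kb).

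Of the regulatory subunits, *Prkar1a* had 298, 293, 311 and 310.5 CPM in vehicle and 331, 338, 323 and 331 CPM with TGF-β1. It rose by 0.13 ± 0.02 on the log2 scale (SE, adjusted p = 2.26e-05), with no overlap. *Prkar1b*, which is best known from brain, had 3.86, 3.07, 4.17 and 3.27 CPM in vehicle and 6.70, 6.73, 6.96 and 6.47 CPM with TGF-β1. Its log2 fold change of 0.90 ± 0.10 (SE, adjusted p = 3.42e-10) came at 0.943 to 1.76 CPM per kb (group means), far under *Prkar1a*. A predicted gene on its strand, *Gm15672*, covers 8.95% of its exons.

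The type II regulatory subunits were not called. *Prkar2a* had a 95% interval of the log2 fold change from −0.06 to 0.06, and *Prkar2b* one from 0.01 to 0.19 with an adjusted p of 0.0677. The ratio of regulatory to catalytic level per length of exon was 1.58 to 1.66 in vehicle and 1.71 to 1.83 with TGF-β1.

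The cAMP-specific PDEs, which end the cAMP signal, changed little. Of 7 tested, 2 rose and 2 fell, none by 0.5, and the median absolute log2 fold change was 0.18, about that of all genes. *Pde8a*, the most abundant per length of exon, had 43.5, 41.6, 39.9 and 41.5 CPM in vehicle and 43.4, 41.5, 43.4 and 45.6 CPM with TGF-β1. The groups overlapped, and the 95% interval of its log2 fold change was −0.01 to 0.14.

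*Pde7a* rose by 0.25 ± 0.04 on the log2 scale (SE, adjusted p = 8.12e-08), from a mean of 43.3 to 51.7 CPM with no overlap. *Pde4d* rose by 0.18 ± 0.07 (SE, adjusted p = 0.0285). *Pde4b*, an inducible enzyme in immune and other cells, fell by 0.43 ± 0.12 (SE, adjusted p = 0.00426) and *Pde8b* by 0.24 ± 0.08 (SE, adjusted p = 0.0163), and both of these had overlapping groups. *Pde4a*, *Pde7b* and *Pde8a* were not called, and *Pde4c* had 4 to 14 counts per culture.

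Summed, the cAMP-specific PDEs stood at 21.6 to 22.7 CPM per kb in vehicle and 22.9 to 24.3 with TGF-β1. The ratio of the cyclase sum to this sum was 1.70 to 1.78 in vehicle and 1.48 to 1.57 with TGF-β1, with no overlap.

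**Figure D3:**
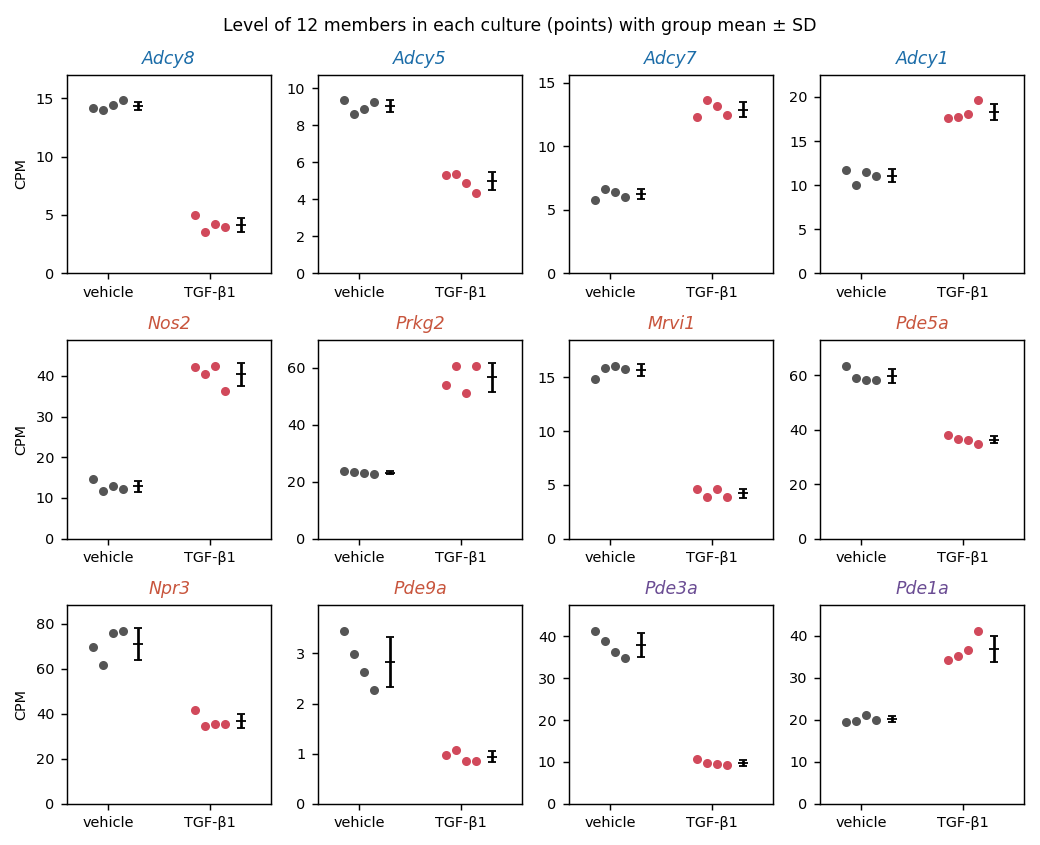
Level in CPM of 12 genes with large changes in each culture (points, grey for vehicle and red for TGF-β1) with the group mean ± SD (n = 4). Each axis starts at 0. The groups overlap in none of the 12 panels, whose genes were picked for large changes. Over all genes tested, the groups did not overlap for 37.9%. *Pde3a*, *Mrvi1* and *Adcy8* fell, and *Nos2*, *Prkg2* and *Adcy7* rose.

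In the cGMP arm 52.9% of the tested genes were called with a change of at least 0.5, and in the cAMP arm 30.4%. The share over all genes was 14.0%. The difference between the arms was not tested, and the 52.9% includes *Nos1* and *Gucy1b2*, which passed the filter only through their higher group. Of the nitric oxide synthases, *Nos2*, the inducible enzyme of inflammation, was nearly all of the level measured, at 97.8% of the summed CPM per kb in vehicle and 99.2% with TGF-β1. *Nos2* (ENSMUSG00000020826, chr11:78920787-78960254) had 14.6, 11.7, 12.9 and 12.1 CPM in vehicle and 42.2, 40.4, 42.5 and 36.3 CPM with TGF-β1. The highest control was far below the lowest treated culture. It rose by 1.65 ± 0.06 on the log2 scale (SE, adjusted p = 1.84e-21), a 3.14-fold higher level.

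*Nos1*, the neuronal enzyme, had 2 to 20 counts per culture and a log2 fold change of 1.20 ± 0.42 (SE, adjusted p = 0.0190). *Nos3*, the endothelial enzyme, had 3 to 13 counts, was not called and shares 32.3% of its exon length with *Atg9b* and *Gm15587* on the other strand.

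The soluble guanylyl cyclase, the receptor of nitric oxide, works as an α and a β subunit together. Its α2 gene *Gucy1a2* was clearly expressed, with 26.1, 24.8, 23.2 and 25.6 CPM in vehicle and 22.6, 18.5, 19.5 and 20.9 CPM with TGF-β1. It fell by 0.29 ± 0.05 on the log2 scale (SE, adjusted p = 2.09e-05), and the groups did not overlap. The β1 gene *Gucy1b1*, the usual partner, had 0 to 6 counts in every culture, and the α1 gene *Gucy1a1* had 8 to 22. *Gucy1a2* held 94.4 to 97.7% of the soluble cyclase level per length of exon. *Gucy1b2* had 4 to 16 counts and a log2 fold change of −1.42 ± 0.44 (SE, adjusted p = 0.00811).

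Of the natriuretic peptide receptors, *Npr3* encodes the clearance receptor, which binds the peptides without a cyclase, and it was the only one called. *Npr3* (ENSMUSG00000022206, chr15:11839896-11907287) had 69.6, 61.8, 75.9 and 76.9 CPM in vehicle and 41.6, 34.6, 35.7 and 35.6 CPM with TGF-β1. All treated cultures were below all controls, and the log2 fold change was −0.95 ± 0.09 (SE, adjusted p = 0.000105). *Npr2*, the cyclase receptor for C-type natriuretic peptide, had 192, 193, 189 and 196 CPM in vehicle and 197, 186, 198 and 185 CPM with TGF-β1. These overlapped throughout, with a log2 fold change of −0.01 and a 95% interval from −0.06 to 0.04.

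*Npr1*, the receptor for atrial and brain natriuretic peptides, was not called, with a 95% interval of the log2 fold change from −0.10 to 0.23. The ratio of *Npr2* to *Npr3* per length of exon was 5.02 to 6.29 in vehicle and 9.51 to 11.2 with TGF-β1. The membrane guanylyl cyclases *Gucy2c* to *Gucy2g*, known from gut, retina and olfactory tissue, reached at most 19 counts in any culture, and the single one tested, *Gucy2f*, was not called.

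Among the readers of cGMP, *Prkg2* rose, *Mrvi1* fell and *Prkg1* was not called. *Prkg2* (ENSMUSG00000029334, chr5:98929773-99037351), the membrane-anchored kinase, had 23.6, 23.3, 23.0 and 22.7 CPM in vehicle and 53.9, 60.7, 50.9 and 60.6 CPM with TGF-β1. It rose by 1.29 ± 0.05 on the log2 scale (SE, adjusted p = 6.21e-22), 2.44-fold, with tight controls and no overlap.

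*Prkg1*, the soluble kinase that relaxes smooth muscle, had 18.4, 18.8, 19.8 and 17.2 CPM in vehicle and 18.0, 16.2, 17.5 and 19.1 CPM with TGF-β1. The groups overlapped, and the 95% interval of its log2 fold change was −0.18 to 0.05. *Mrvi1* (ENSMUSG00000005611, chr7:110868266-110982461), whose product IRAG1 is phosphorylated by the PKG I enzyme and restrains calcium release from stores, had 14.8, 15.9, 16.1 and 15.8 CPM in vehicle and 4.60, 3.83, 4.58 and 3.87 CPM with TGF-β1. It fell by 1.89 ± 0.08 on the log2 scale (SE, adjusted p = 2.40e-24), to a 3.71-fold lower level.

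Of the 2 kinase genes together, *Prkg2* made up 70.2 to 72.7% of the level per length of exon in vehicle and 85.5 to 88.4% with TGF-β1. Within the kinases and *Mrvi1*, the share of *Mrvi1* went from a mean of 27.6% to 4.88%.

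The cGMP-specific PDEs all fell, 4 of 4 tested. *Pde5a*, the enzyme blocked by sildenafil and the most abundant of them, had 63.5, 59.0, 58.1 and 58.3 CPM in vehicle and 38.1, 36.5, 36.2 and 34.7 CPM with TGF-β1. The groups lay well apart, and the log2 fold change was −0.72 ± 0.04 (SE, adjusted p = 1.55e-20). *Pde9a*, which has the highest affinity for cGMP, had 3.45, 2.98, 2.63 and 2.27 CPM in vehicle and 0.982, 1.07, 0.851 and 0.851 CPM with TGF-β1. It fell by 1.59 ± 0.17 on the log2 scale (SE, adjusted p = 6.06e-11), again with no overlap.

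The photoreceptor PDE genes were low. *Pde6a* fell by 0.62 ± 0.21 on the log2 scale (SE, adjusted p = 0.0125) at 29 to 70 counts per culture, and *Pde6b* by 0.44 ± 0.12 (SE, adjusted p = 0.00351) at 114 to 192 counts. *Pde6c* had 1 to 21 counts and was not tested. The sum of the cGMP-specific PDEs was 7.63 to 8.52 CPM per kb in vehicle and 4.52 to 5.03 with TGF-β1, and *Pde5a* made up 76.4% and 77.7% of it (group means).

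The dual-substrate PDEs held the largest fall of all 48 genes tested. *Pde3a* (ENSMUSG00000041741, chr6:141249269-141507448), a cGMP-inhibited enzyme of heart and vascular smooth muscle, had 41.3, 39.0, 36.4 and 34.9 CPM in vehicle and 10.7, 9.69, 9.45 and 9.24 CPM with TGF-β1. The log2 fold change was −1.96 ± 0.06 (SE, adjusted p = 2.25e-29), a 3.88-fold lower level. Its paralog *Pde3b*, known from fat and liver, overlapped between groups with a 95% interval of the log2 fold change from −0.06 to 0.22.

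*Pde1a*, a calcium and calmodulin-dependent enzyme of smooth muscle among other tissues, went the other way. It had 19.5, 19.8, 21.2 and 19.9 CPM in vehicle and 34.2, 35.1, 36.6 and 41.1 CPM with TGF-β1. Every treated culture exceeded every control, and it rose by 0.87 ± 0.05 on the log2 scale (SE, adjusted p = 1.00e-18). *Pde10a*, abundant in striatum, rose by 0.52 ± 0.11 (SE, adjusted p = 0.000112), from a mean of 3.18 to 4.55 CPM.

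*Pde1c* had 8 to 38 counts per culture, overlapping groups and a log2 fold change of −0.94 ± 0.33 (SE, adjusted p = 0.0188). *Pde1b* and *Pde2a* were not called. For *Pde2a*, the cGMP-stimulated enzyme, the 14 to 30 counts per culture did not overlap between groups but missed the threshold (log2 fold change −0.61, adjusted p = 0.111), and *Gm45837* covers 64.3% of its exons on the same strand.

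The sum of the dual-substrate PDEs was 8.56 to 8.85 CPM per kb in vehicle and 8.93 to 10.2 with TGF-β1. *Pde3a* held 34.4% of it in vehicle and 8.20% with TGF-β1, and *Pde1a* 38.6% and 65.0% (group means). Over all PDE genes, *Pde3a* and *Pde5a* together went from 22.4 to 24.4% of the summed level in vehicle to 10.9 to 12.4% with TGF-β1.

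**Figure D4:**
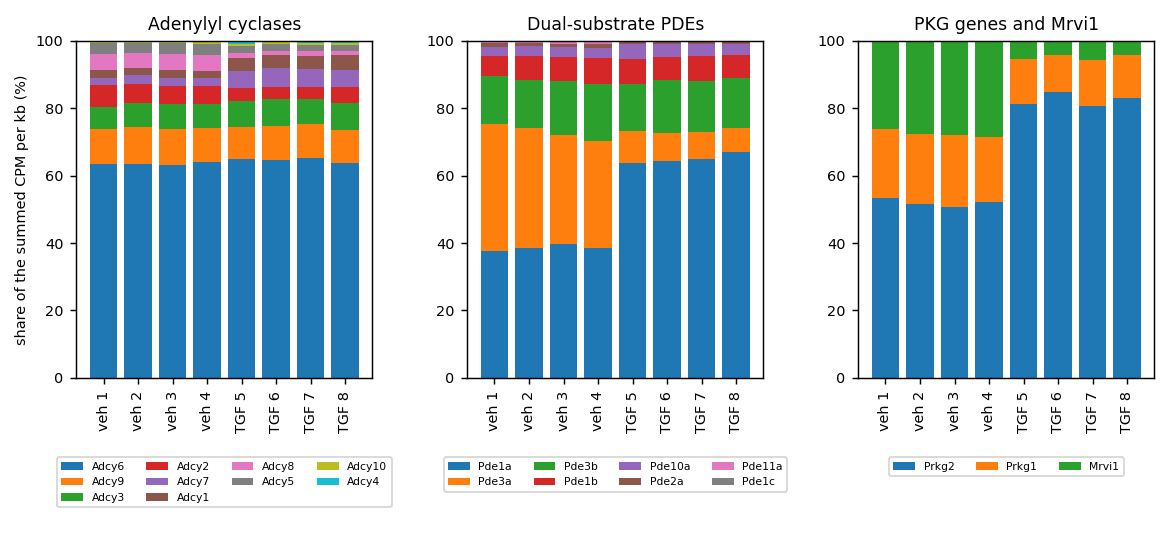
Share of each gene in the summed CPM per kb of its role in each culture (bars, stacked to 100%), for the adenylyl cyclases, the dual-substrate PDEs, and the PKG genes with *Mrvi1*. *Adcy6* keeps about the same share (group means 63.5% and 64.6%), *Pde1a* goes from 38.6% to 65.0% and *Pde3a* from 34.4% to 8.20%, and *Prkg2* goes from 51.9% to 82.3% while *Mrvi1* goes from 27.6% to 4.88%.

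*Pde6d*, the chaperone kept apart from the arms, fell by 0.25 ± 0.04 on the log2 scale (SE, adjusted p = 2.45e-07), from a mean of 48.6 to 40.9 CPM.

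Calls with a small change or few counts depended on single cultures. *Prkaca* was lost without vehicle replicate 2 or TGF-β1 replicate 7 (adjusted p = 0.0533 and 0.0982). *Pde4d* was lost without vehicle replicate 1 or TGF-β1 replicate 6 or 7 (adjusted p from 0.0682 to 0.115), and *Pde8b* without vehicle replicate 3 or 4 or TGF-β1 replicate 6 or 8 (adjusted p from 0.0611 to 0.0982). *Nos1* was lost without vehicle replicate 3 or TGF-β1 replicate 5 or 6 (adjusted p from 0.0621 to 0.103), *Pde6a* without TGF-β1 replicate 6 (adjusted p = 0.0628), and *Pde1c* without vehicle replicate 3 or TGF-β1 replicate 6 or 7 (adjusted p from 0.0604 to 0.0914). *Prkar2b* was gained without vehicle replicate 3 (adjusted p = 0.0131). The other calls, apart from that of *Adcy6* above, passed in each of the 8 fits.

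Summed over each arm, the levels moved little beside the changes of single genes. The cAMP arm stood at 205 to 210.5 CPM per kb in vehicle and 214.1 to 214.4 with TGF-β1. The cGMP arm stood at 72.9 to 74.6 CPM per kb in vehicle and 75.1 to 79.1 with TGF-β1. Neither pair of ranges overlapped, and both sums are dominated by genes that changed little, *Prkar1a* and *Prkaca* in the cAMP arm and *Npr2* in the cGMP arm.

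Around the arms, 7 lists of other genes of the pathways were looked at, with 139 genes in all, 138 of them in the data and 120 tested. Of the 120, 31 rose and 33 fell, and the absolute log2 fold change had a median of 0.24. These counts are read against 20.9% higher and 20.3% lower over all genes.

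Upstream of the cyclases, among Gs-coupled receptors, their partners and G proteins, 4 of 25 rose and 7 fell. *Calcrl*, the part shared by the adrenomedullin and CGRP receptors, fell by 1.26 ± 0.06 on the log2 scale (SE, adjusted p = 4.99e-21). *Ramp2*, its partner in the adrenomedullin receptor, fell by 1.82 ± 0.14 (SE, adjusted p = 4.83e-15). *Ramp1*, its partner in the CGRP receptor, and *Ramp3* were not called (log2 fold change −0.35 and −0.04, adjusted p = 0.318 and 0.913). *Calcrl* went from a mean of 22.4 to 9.31 CPM and *Ramp2* from 4.25 to 1.20 CPM. *Ptgdr*, a prostaglandin D2 receptor, fell by 1.64 and *Vipr2*, a receptor for vasoactive intestinal peptide, by 1.31 on the log2 scale. *Ptgir*, the prostacyclin receptor, rose by 0.63, *Ptger2*, a prostaglandin E2 receptor with overlapping groups, by 0.97, and *Gnai1*, an inhibitory G protein, by 0.40.

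Among the other readers of cAMP and cGMP (EPAC, Popeye and cyclic nucleotide-gated channel genes), 2 of 14 rose and 4 fell. *Cngb1*, a channel subunit, fell by 0.82 on the log2 scale, from a mean of 20.2 to 11.4 CPM, and *Bves* by 0.72. *Cnga4* fell by 1.35 and *Cnga3* rose by 1.19, both under 1 CPM. *Rapgef3*, which encodes EPAC1, rose by 0.13. Among PKA anchors and inhibitors, 4 of 19 rose and 4 fell, none by 0.5. The largest falls were those of *Ezr* by 0.43, *Akap7* by 0.32 and *Akap13* by 0.25 on the log2 scale, and *Akap2* rose by 0.39, *Akap11* by 0.24 and *Akap6* by 0.23.

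Among CREB factors and target genes, 6 of 20 rose and 9 fell, with no common direction. *Rgs2*, a G protein brake that is also a PKG substrate, fell by 1.80 ± 0.12 on the log2 scale (SE, adjusted p = 1.36e-16), *Creb5* by 1.05 and *Sik1* by 0.50. *Areg*, an EGF receptor ligand, rose by 1.19, *Nr4a1* by 0.89 and *Fos* by 0.66.

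On the cGMP side, 7 of 21 genes of natriuretic peptides and nitric oxide regulation rose and 3 fell. *Ddah1*, which clears an endogenous inhibitor of nitric oxide synthases, rose by 1.13 ± 0.03 on the log2 scale (SE, adjusted p = 6.72e-29), from a mean of 42.7 to 93.3 CPM. *Gch1*, which starts the synthesis of the synthases' cofactor, rose by 0.70, while *Gchfr*, its feedback regulator, fell by 0.59. *Nos1ap* fell by 1.01 and *Mme*, which encodes the peptidase neprilysin, by 0.70. *Corin* and *Nppb* rose by 0.84 and 0.83 at under 1 CPM, with overlapping groups. *Calcrl* above and *Gch1* here were named after their values were seen.

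Of the PKG substrates and relaxation targets, 5 of 14 rose and 6 fell. After *Rgs2*, the largest falls were those of *Lrmp*, a relative of *Mrvi1* at no more than 13 counts, by 1.46, and of *Ppp1r12b*, a myosin phosphatase subunit, by 0.70 on the log2 scale. *Lrmp*, at 0.238 to 0.285 CPM in vehicle and 0.0436 to 0.196 CPM with TGF-β1, passed the filter only through the group where it was higher. The count of 6 includes it. *Cnn1* rose by 0.36, *Itpr1*, a calcium release channel, by 0.28 and *Atp2a2*, the calcium pump of the stores, by 0.20. Of the transporters and small PDE genes, 3 of 8 rose and 1 fell, which was *Abcc5*, an exporter of cGMP, by 0.57, from a mean of 638 to 429 CPM. The rises were 0.36 for *Pde4dip*, 0.17 for *Abcc4* and 0.13 for *Pde12*.

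The library totals were 45255235 to 47651397 counts. Of the 10 pericyte markers, 7 were tested and *Kcnj8*, *Abcc9* and *Vtn* had no more than 10 counts in any culture. The summed level of the list was 418 to 439 CPM in vehicle and 578 to 601 CPM with TGF-β1, with *Pdgfrb*, *Cspg4* and *Mcam* higher and *Rgs5* and *Anpep* lower. The 6 fibroblast markers summed to 3717 to 3878 and 5327 to 5569 CPM, almost all from *Col1a1* and *Col1a2*, which were higher. Of the other fibroblast markers, *Dcn* and *Dpt* were lower, *Pdgfra* was not called and *Lum* had no more than 6 counts. The 6 smooth muscle markers summed to 718 to 793 and 719 to 759 CPM, nearly all from *Acta2*, which was not called. *Lmod1* was lower and *Cnn1* higher, *Myh11* and *Tagln* were not called, and *Myocd* had no more than 10 counts. The 7 endothelial markers summed to 390.5 to 405 and 376 to 402 CPM, nearly all from *Cdh5*, which was not called. *Vwf* was higher (a mean of 1.58 to 3.81 CPM) and *Tek* lower, *Pecam1* and *Kdr* were not called, and *Cldn5* and *Erg* had no more than 10 counts.

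The 5 astrocyte markers summed to 50.1 to 57.2 CPM in vehicle and 39.2 to 44.2 CPM with TGF-β1, with *Aqp4* at no more than 6 counts. *Slc1a2* alone was lower, from a mean of 38.5 to 16.3 CPM, while *Aldh1l1* rose from 5.16 to 8.79 CPM and *Slc1a3* from 9.74 to 15.2 CPM. The 6 neuron markers summed to 5.46 to 6.67 and 9.34 to 12.4 CPM, with *Tubb3* higher (2.11 to 7.91 CPM) and *Gad1* lower (0.948 to 0.400 CPM). The 6 microglia and macrophage markers summed to 3.14 to 4.06 and 4.62 to 5.41 CPM, and the 5 oligodendrocyte lineage markers to 4.12 to 5.48 and 5.34 to 6.04 CPM. In these lists *Csf1r* and *Mbp* were called higher and *Sox10* lower. The part of these shifts in the changes of the cyclic nucleotide genes was not tested. In bulk RNA, fewer cells of a type and less RNA per cell cannot be told apart.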

How the data were processed

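RNA of the 8 cultures was prepared with a stranded total RNA kit. The authors aligned reads to mm10 with STAR 2.7.5c in 2 passes, took out duplicates (SAMtools 1.15) and assigned reads to genes with featureCounts 2.0.3. The deposited values are counts, without normalization, 1 table per culture. The annotation release, strand setting and handling of shared reads are not given in the sources used here. Between 68.5% and 70.2% of the counts from 1 to 20 were even numbers, so counts may not be independent fragments.

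Identifiers were paired with GENCODE M21 on GRCm38 (54495 of 54532). Genes were tested with edgeR 4.0.16 in R 4.3.3 (filterByExpr, TMM factors, robust dispersion, quasi-likelihood test, Benjamini-Hochberg adjustment over 22544 genes, threshold 0.05). Each SE was obtained from the log2 fold change and its F statistic (size over root F). CPM used TMM-scaled totals of the genes tested, and levels between genes used CPM per kb of merged exons. The steps were tested on simulated data. DESeq2 1.42.0, other scalings and filters, halved counts and leaving out each culture were the alternatives. Totals were 45255235 to 47651397 counts.

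Genes named with values were those called with a change of at least 0.5 on the log2 scale and the most abundant gene of each role, others being given more briefly, and for each pathway list the 3 largest rises and falls. The genes and lists were chosen with earlier results of these data known. Per the methods, independent isolates were given vehicle and TGF-β1, which may mean that each received both. The labels do not say which cultures share an isolate, so the fit is unpaired, treats the 8 cultures as independent, and its p-values measure the spread between these cultures. Sequences are from RefSeq, and all pairs of cultures within a group differed by more than sampling noise (chi-square per degree of freedom 2.25 to 3.92, or 1.12 to 1.97 with counts halved).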

Additional observations from a re-analysis of the deposited data

Results flagged for a closer look

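Among 76 groups of 4 values looked at, in 3 the highest value stood well apart, and chance alone, at 1 in 20, would give 3.8. *Npr3* had 41.6 CPM in TGF-β1 replicate 5, and the other TGF-β1 cultures had 34.6 to 35.7 CPM. *Gucy1b2* had 0.192 CPM in TGF-β1 replicate 8, and the others had 0.0871 to 0.0873 CPM, all at few counts. The summed level of the membrane guanylyl cyclases and natriuretic peptide receptors was 51.8 CPM per kb in vehicle replicate 4, and the other vehicle cultures had no more than 50.3 CPM per kb.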

How the results depend on the processing

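Across 15 alternatives, calls were counted in each arm and over the pathway lists pooled, not for single lists. The counts stayed within 1.5 times the values reported, except for the dual-substrate PDEs that fell, which were 2. That count was 1 where at least 10 counts in every culture were required, since *Pde1c* was then not tested, and it ran from 1 to 2 when single cultures were left out (1 without vehicle replicate 3 or TGF-β1 replicate 6 or 7). *Npr2*, which was not called, ran from −0.0281 to 0.0156 on the log2 scale when single cultures were left out, and was positive without TGF-β1 replicate 6 (0.0032) or 8 (0.0156). DESeq2 lost 1 call, *Pde8b* (adjusted p = 0.0597), and keeping every gene with 1 count or more lost *Prkaca* and *Pde4d* (adjusted p = 0.0650 and 0.0587). The filter of at least 10 counts left 7 of the 48 genes untested and halving the counts left 5. Other scalings moved the median log2 fold change of all genes by no more than 0.011. Depth limits what can be said of the 8 untested genes and of *Nos1*, *Nos3*, *Gucy1a1*, *Gucy1b2* and *Gucy2f*. No paired analysis was possible because the labels number the groups 1 to 4 and 5 to 8 and share no replicate number. The wording of the methods may mean that each isolate received both treatments.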
